A study of Mus musculus with 6 samples.

Results

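Messenger RNA of a myeloid-like cell complex (MCC) was compared with that of mouse embryonic fibroblasts (MEF), gene by gene and with each MCC library taken apart. The comparison rests on 4 of the 6 libraries of the series, 2 of MCC and 2 of MEF, chosen by their labelled cell type. The other libraries are of induced macrophages (iMac). They entered the fits to help estimate the spread between libraries, and 1 set of genes was chosen with them. All samples are labelled wild type, and no treatment, time, age or strain is given. By its title, the series concerns the turning of fibroblasts into macrophages by c-Myc, the product of the Myc gene. The sources used here do not say how the complex was made, which cells it holds or whether the libraries came from separate cultures. The p-values therefore measure only the spread between these libraries.

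MEF are connective tissue cells grown from embryos. They build collagen matrix, pull on it through bundles of actin, receive signals such as Hedgehog through a single cilium, and in culture slow down as p53 and the Ink4 inhibitors accumulate. Macrophages are blood-lineage cells that crawl on branched actin, engulf particles and read signals through Src-family and Syk kinases. The myeloid state is set largely by the transcription factor PU.1, encoded by Spi1.

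Levels are given as CPM, counts per 1e6 counts of the library after TMM scaling, and always in the order library 1, library 2. Each MCC library was tested against both MEF libraries with edgeR's quasi-likelihood test. The p-values were adjusted over all 18613 genes tested by the Benjamini-Hochberg method, with a threshold of 0.05. A gene is said to have risen or fallen where it passed with MCC library 1 and with MCC library 2. Pairs of log2 fold changes and p-values are in the same order, and their errors are standard errors. In these fits the lone MCC library is taken to vary as much as the other groups do. Where a MEF library is left out as well, the spread comes from the iMac libraries alone and more genes can pass. A level of 0 counts is limited to a floor of 3 counts. A fold against 0 counts is then a lower bound, and a fold against 1 to 3 counts has a 95% counting interval. Intervals and floors cover counting error only.

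The labelled cell types could be checked against their markers. Spi1 was at 0 and 0.0258 CPM in MEF and at 305 and 371 CPM in MCC, Csf1r, the macrophage growth factor receptor, at 0.407 and 0.464 CPM in MEF and at 2005 and 2033 CPM in MCC, and Ptprc, the leukocyte phosphatase CD45, at 0.271 and 0.0258 CPM in MEF and at 219 and 248 CPM in MCC. Myc was at 70.7 and 63.1 CPM in MEF and at 823 and 1164 CPM in MCC (log2 fold change 3.73 ± 0.15 and 4.12 ± 0.15, edgeR adjusted p = 0.000347 and 0.000231), and whether the counts hold reads of an introduced Myc cannot be told from the table. Of 50 macrophage identity genes 49 were called higher with library 1 and 47 with library 2, and their summed level was 1091 and 2148 CPM in the MEF libraries and 46947 and 43870.0 CPM in MCC libraries 1 and 2. Of 20 fibroblast markers 19 were called lower with each library, and their sum was 37104 and 16799 CPM in the MEF libraries and 2459 and 583 CPM in MCC libraries 1 and 2. The fibroblast markers Pdgfra, at 3.17 and 0.562 CPM, and Thy1, at 15.2 and 2.30 CPM, were thus higher in MCC library 1 than in MCC library 2. Of the markers of other blood cells, Mpo and Cpa3 of granulocytes and mast cells, Gata1 of red cells and Cd8a of T cells had no counts in either MCC library. The lists they belong to did not all stay low. Of 5 neutrophil genes tested 3 were called higher with each library, among them Prtn3, at 10.1 and 14.02 CPM, and Csf3r, at 60.9 and 76.03 CPM, and the list summed to 1.95 and 7.65 CPM in the MEF libraries and 120.4 and 118 CPM in MCC libraries 1 and 2. Of 8 monocyte genes 4 were called higher with each library, with a sum of 110.2 and 299 CPM in the MEF libraries and 2059 and 1986 CPM in MCC libraries 1 and 2. Of 5 erythroid and megakaryocyte genes 2 were called higher with each library, with a sum of 48.8 and 81.1 CPM in the MEF libraries and 557 and 311 CPM in MCC libraries 1 and 2, most of it from the widely used transferrin receptor Tfrc at 545 and 299.6 CPM in MCC. Of 11 dendritic cell genes 4 and 5 were called higher and 1 and 2 lower, and their sum was 515 and 394 CPM in the MEF libraries and 168 and 136 CPM in MCC libraries 1 and 2. Mast cell and basophil genes summed to 19.7 and 37.9 CPM in the MEF libraries and 2.52 and 0.401 CPM in MCC libraries 1 and 2. Lymphoid genes summed to 38.7 and 31.7 CPM in the MEF libraries and 5.28 and 3.77 CPM in MCC libraries 1 and 2. The part of other blood cells in these results was not tested. The libraries held between 34389817 and 39174367 counts.

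Of 18613 genes tested, 3681 were called higher and 4210 lower with MCC library 1, which is 19.8% and 22.6%. With MCC library 2 it was 3725 and 5168, or 20% and 27.8%. Called in the same direction with both were 3199 higher genes, 17.2% of those tested, and 4053 lower genes, 21.8%. These shares are the background for every count of list members that follows. The calls with MCC libraries 1 and 2 are not independent, since both fits used the same MEF and iMac libraries. A gene that passed with each MCC library could hardly overlap with MEF. The lack of overlap given next follows largely from the calls and adds no support to them. In all of these 3199 and 4053 genes both MCC libraries lay beyond both MEF libraries, with no overlap between the groups, so wherever a gene is said to have risen or fallen its groups did not overlap. The shared rises made up 86.9% of the rises of library 1 and 85.9% of those of library 2. The shared falls made up 96.3% of the falls of library 1 but 78.4% of those of library 2, since 1115 genes were called lower with library 2 alone and 157 with library 1 alone. In a single fit over all 6 libraries 4358 genes (23.4%) were higher and 5506 (29.6%) lower, and 2460 and 4293 of these differed at least 2-fold. There the distance between the MCC libraries widens the error: Yap1 missed the threshold in that fit although it passed with each library.

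The MCC libraries differed more towards library 1 than towards library 2. Of 10683 genes at 5 CPM or more in either MCC library, 510 were more than 2-fold higher in library 1 and 40 in library 2. Beyond 8-fold, the counts were 190 and 1. Of the 510 genes, 393 were called lower than MEF with library 1 and 457 with library 2. A set of fibroblast transcripts was chosen without the MCC libraries, after the data had been seen: 842 genes at 20 CPM or more in MEF and at least 32-fold lower in the mean of the iMac libraries. Their median was 6.50% of the MEF mean in MCC library 1, with quartiles of 3.50% and 9.94%, and 0.561% in MCC library 2, with quartiles of 0.243% and 1.51%. Of the 842 genes, 811 were higher in MCC library 1 than in MCC library 2. Another set of 769 genes was at 20 CPM or more in MEF and at least 32-fold lower with MCC library 2, so that its low level in that library is set by the choice and only its spread in MCC library 1 is described. In MCC library 1 these genes stood at a median of 5.98% of the MEF mean, with quartiles of 3.31% and 9.26%. Most of them, 448 or 58.3%, lay between 3% and 10% of the MEF level. In bulk RNA, a smaller number of remaining fibroblasts and less RNA in each of them cannot be told apart.

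**Figure D1:**
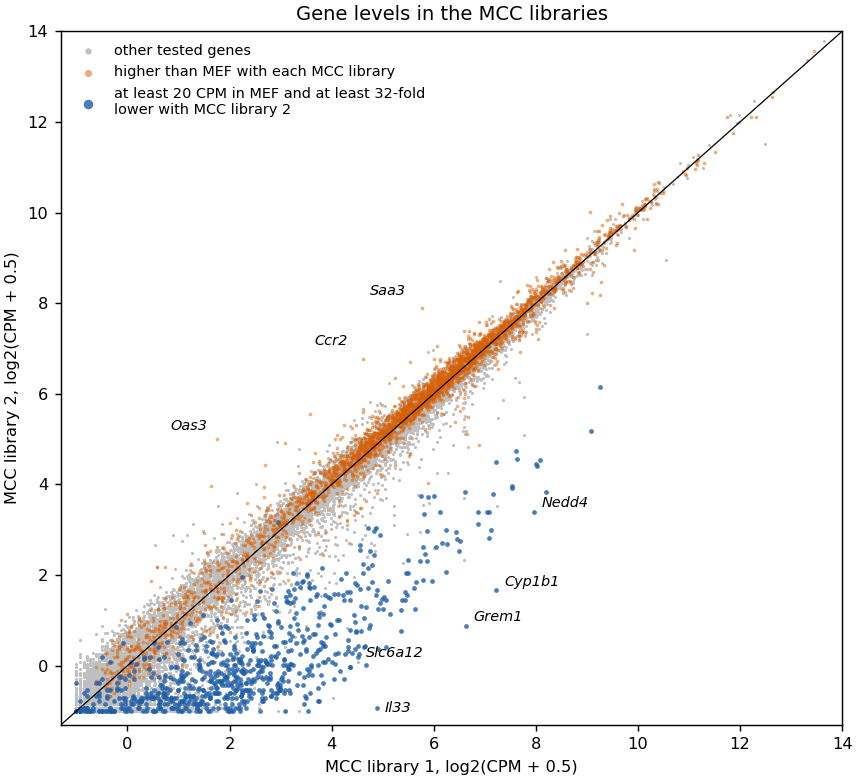
Level of each tested gene in MCC library 1 (horizontal) and MCC library 2 (vertical) as log2(CPM + 0.5), with equal levels on the diagonal. Genes higher with each MCC library (orange) lie along the diagonal. Genes at 20 CPM or more in MEF and at least 32-fold lower with library 2 (blue) lie mostly below it. Both sets were chosen by their levels in the MCC libraries, the blue one by a low level in library 2. That choice helps to set the place of each.

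**Figure D2:**
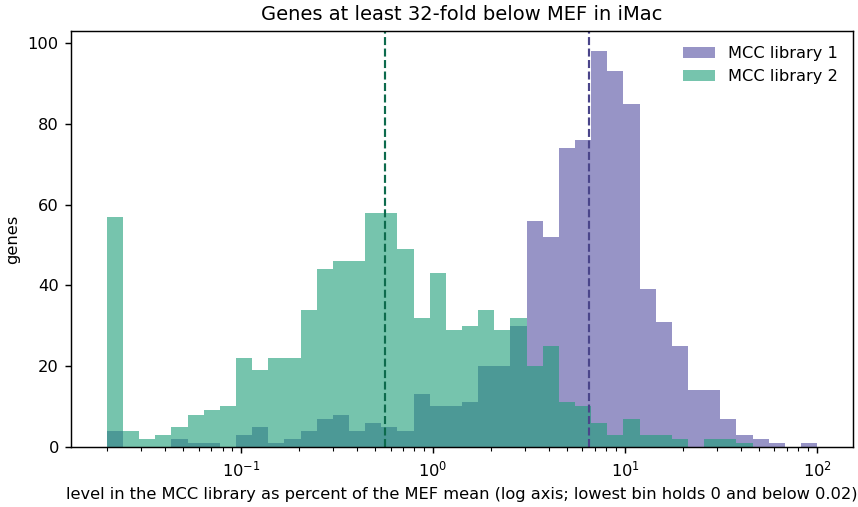
Level in each MCC library of 842 genes chosen from MEF and iMac alone, as percent of their MEF mean on a log axis, with the number of genes in each bin and dashed lines at the medians. The median is 6.50% in MCC library 1 and 0.561% in MCC library 2.

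The remaining share in MCC library 1 was not the same for all of the 769 genes. At 20% or more of the MEF level in MCC library 1 were 25 of them, among them Cyp1b1, an enzyme that oxidises steroids and aromatic compounds (57.95%), Grem1, which binds and blocks BMP ligands (42.9%), Ereg, a ligand of the EGF receptor (37.4%), and Il33, an alarm cytokine of stromal cells (27.9%). Below 1% were 68 genes, among them Olig1, Ntrk2, Gpm6a, Astn1 and Mt3, all best known from neural cells. Others of the 68 are not neural genes, such as Igfbp3 (0.446%) and the imprinted H19 (0.928%). Sox2, which neural cells also use, stood at 5.01%, so neural genes were not all among the least retained. Olig1 was at 34.97 and 185 CPM in MEF and at 0.0520 and 0.0268 CPM in MCC, and Gpm6a, a neuronal membrane protein, at 15.5 and 64.9 CPM in MEF and at 0.0260 and 0.0803 CPM in MCC. The MEF libraries differed along the same order: 12 of the 68 least retained genes were higher in MEF library 1, against 20 of the 25 most retained. Whether that difference between the MEF libraries has a part in which transcripts remained was not tested.

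Single genes show how far the libraries stood apart. Among the genes with the largest gap towards MCC library 1, Il33 was at 130.1 and 78.03 CPM in MEF and at 29.1 and 0.0268 CPM in MCC, and Grem1 at 324 and 137 CPM in MEF and at 98.8 and 1.34 CPM in MCC. Slc6a12, a transporter of betaine and GABA, was at 0.515 and 0.206 CPM in MEF and at 22.4 and 0.562 CPM in MCC. Il33 and Grem1 were thus nearly gone from library 2 but not from library 1, and Slc6a12 was high in MCC library 1 alone. Nedd4, a ubiquitin ligase, was at 2950.3 and 2472 CPM in MEF and at 249.6 and 10.1 CPM in MCC, and it fell with each library (log2 fold change -3.34 ± 0.35 and -8.07 ± 0.46, edgeR adjusted p = 0.00388 and 0.000566). Of the 12 genes with the largest gap towards library 2, 4 are given here. Oas3, a sensor of double-stranded RNA, was at 0.0813 and 0.155 CPM in MEF and at 2.89 and 31.6 CPM in MCC, Irf7, the main factor of the type I interferon loop, at 3.66 and 4.30 CPM in MEF and at 7.13 and 30.2 CPM in MCC, and Saa3, an acute-phase protein, at 0.244 and 0.103 CPM in MEF and at 53.8 and 236 CPM in MCC. Ccr2, the receptor that draws monocytes to inflamed tissue, was at 0 counts in MEF and 23.9 and 109 CPM in MCC, at least 604-fold and 2754-fold higher. Oas3 passed with each library but lost its call with library 1 when MEF library 2 was left out. Only 5 genes had opposite calls, all higher with library 1 and lower with library 2: Cp, Cldn11, En2, Acan and Ets2, named here after their values were seen. Cp, the copper oxidase ceruloplasmin, was at 70.7 and 70.1 CPM in MEF and at 96.9 and 34.1 CPM in MCC, and Cldn11, a claudin of tight junctions, at 1.06 and 1.47 CPM in MEF and at 7.20 and 0.161 CPM in MCC. Without MEF library 2, Cldn11 lost its call with MCC library 2.

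The fibroblast markers had median log2 fold changes of -4.06 with library 1 and -7.37 with library 2, with members at 0 counts set to their bound. The lists of Hedgehog, Hippo, BMP, retinoic acid, cell junction and stress-fibre genes likewise had smaller falls with library 1 than with library 2. The part of remaining fibroblast RNA in these results was not tested.

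**Figure D3:**
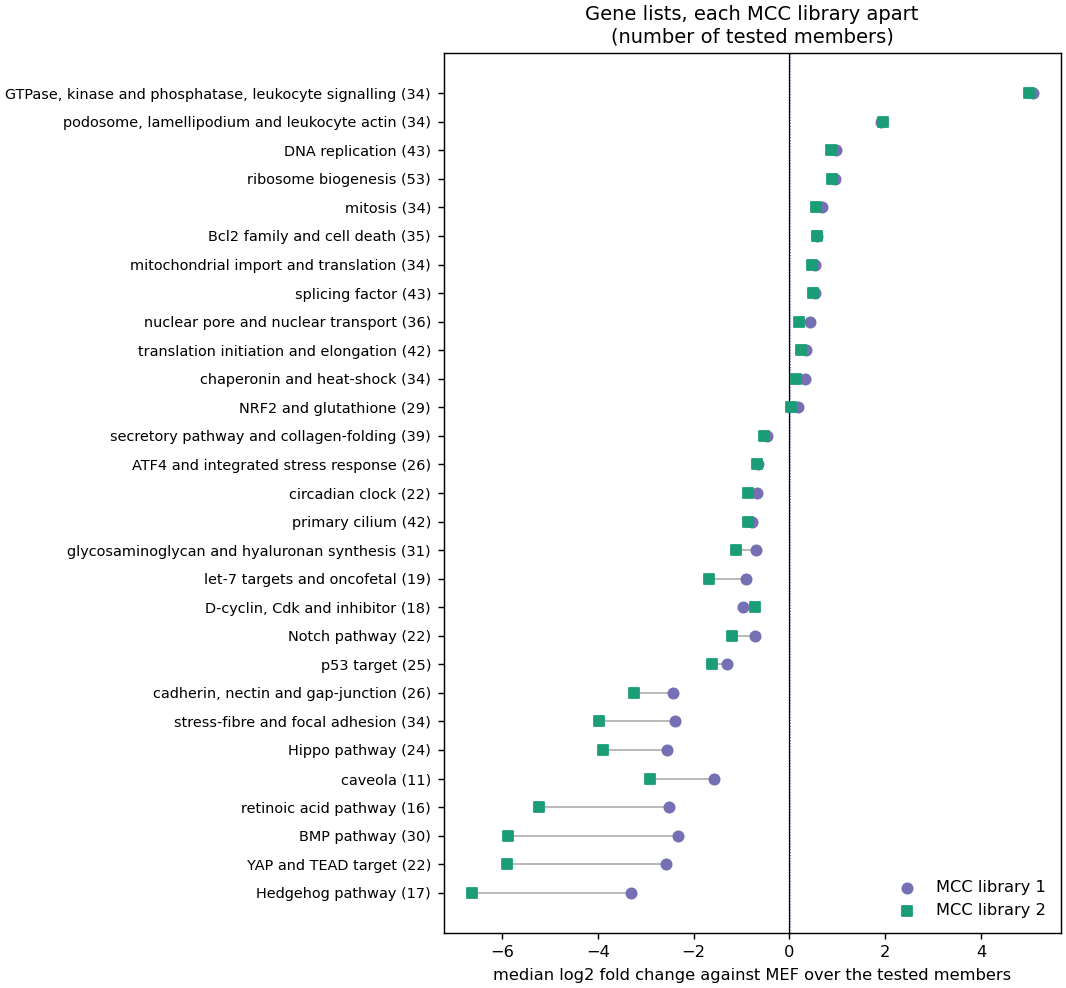
Median log2 fold change against MEF of the tested members of 29 gene lists, with MCC library 1 as circles and MCC library 2 as squares, and the number of tested members in brackets. The medians of the lists that rose differ little between the libraries, while the Hedgehog list lies at -3.31 with library 1 and -6.63 with library 2.

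Hedgehog signalling, which in fibroblasts runs through the primary cilium, fell in most of its components. The pathway starts with a ligand that relieves the block of Smo by Ptch1, and ends in the Gli transcription factors. Of 17 tested members 14 were called lower with each library and 0 higher, the same 14 genes, with median log2 fold changes of -3.31 and -6.63, the latter -5.64 with members at 0 counts set to their bound. The ligand Shh was at 2.25 and 10.4 CPM in MEF and at 0.0520 and 0 CPM in MCC. The co-receptor Boc, which helps Ptch1 bind the ligand, was at 105 and 131 CPM in MEF and at 8.06 and 2.35 CPM in MCC (log2 fold change -3.77 ± 0.23 and -5.64 ± 0.27, edgeR adjusted p = 0.00105 and 0.000371), and its relative Cdon at 141 and 68.7 CPM in MEF and at 11.3 and 1.04 CPM in MCC. Smo, the transducer, fell less, to 87.3 and 71.6 CPM from 154 and 135 CPM (log2 fold change -0.62 ± 0.16 and -1.01 ± 0.16, edgeR adjusted p = 0.0334 and 0.00815). All of these stood below both MEF libraries in both MCC libraries.

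The Gli factors fell steeply. Gli2, the main activator, was at 43.5 and 51.9 CPM in MEF and at 1.01 and 0.161 CPM in MCC (log2 fold change -5.44 ± 0.30 and -8.18 ± 0.37, edgeR adjusted p = 0.00189 and 0.000897). Gli3, the main repressor, was at 107 and 100.1 CPM in MEF and at 9.73 and 0.401 CPM in MCC (log2 fold change -3.31 ± 0.38 and -8.00 ± 0.52, edgeR adjusted p = 0.00452 and 0.000807). Gli1, a target that reports pathway activity, was at 10.2 and 27.6 CPM in MEF and at 0.0520 and 0.187 CPM in MCC, 368-fold lower (counting interval 102 to 3041) with library 1 and a log2 fold change of -6.63 ± 0.96 with library 2. Hhip, a target that binds and removes the ligand, was at 18.2 and 46.5 CPM in MEF and at 0.0520 and 0 CPM in MCC. Ptch1, both receptor and target, was at 52.7 and 129.6 CPM in MEF and at 33.9 and 40.2 CPM in MCC and did not pass with either library. Its MEF libraries lay far apart.

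Genes of cilium structure were called lower more often than higher. Of 42 structural genes 22 were called lower with library 1 and 24 with library 2, 20 of them with both, against 2 and 2 higher, with medians of -0.79 and -0.87. Tctn2, a protein of the transition zone that gates the cilium, was at 24.02 and 25.9 CPM in MEF and at 2.60 and 0.562 CPM in MCC (log2 fold change -3.16 ± 0.25 and -5.46 ± 0.30, edgeR adjusted p = 0.0018 and 0.000514). Tulp3, which carries receptors into the cilium, was at 125 and 109 CPM in MEF and at 19.3 and 15.1 CPM in MCC (log2 fold change -2.50 ± 0.18 and -2.95 ± 0.18, edgeR adjusted p = 0.00143 and 0.000694), and Wdr35, of the retrograde transport complex, at 73.9 and 81.4 CPM in MEF and at 17.997 and 12.6 CPM in MCC. Of the trains that move cargo along the cilium, Ift81 fell from 23.1 and 23.5 to 7.39 and 6.26 CPM and Ift122 from 40.2 and 40.03 to 13.8 and 14.9 CPM. Ift52 rose, from 35.2 and 30.7 to 46.2 and 49.2 CPM. Apart from Tctn2, the MCC libraries were closer to each other in these genes than in the Gli factors. With median-ratio size factors, 0 members were called higher with library 1.

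The Hippo pathway, which restrains the growth co-activators Yap1 and Wwtr1 (TAZ), had lower messenger RNA for most of its members. When free of the kinases, Yap1 and TAZ bind the TEAD factors on DNA. Of 24 members 17 were called lower with library 1 and 18 with library 2, with medians of -2.56 and -3.90. Yap1 was at 242 and 188 CPM in MEF and at 22.7 and 0.696 CPM in MCC (log2 fold change -3.14 ± 0.22 and -8.27 ± 0.31, edgeR adjusted p = 0.00146 and 0.000231) and Wwtr1 at 223 and 194 CPM in MEF and at 14.3 and 1.04 CPM in MCC (log2 fold change -3.76 ± 0.26 and -7.64 ± 0.33, edgeR adjusted p = 0.00137 and 0.000305). Tead1 was at 450.2 and 339 CPM in MEF and at 30.4 and 2.11 CPM in MCC, Tead2 at 97.9 and 109.9 CPM in MEF and at 11.9 and 0.669 CPM in MCC and Tead4 at 16.6 and 24.3 CPM in MEF and at 1.51 and 0.0535 CPM in MCC. In library 2 these genes were almost gone, while library 1 kept 10.5% of the MEF mean of Yap1, 6.85% of Wwtr1, 7.69% of Tead1 and 11.4% of Tead2.

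Other Hippo members moved in both directions. The scaffolds Amot and Amotl2, which hold Yap1 outside the nucleus, both fell, Amot from 128 and 124 to 10.2 and 3.10 CPM and Amotl2 from 398 and 223 to 33.8 and 3.16 CPM. Wwc1 (KIBRA), which activates the kinases, was at 91.997 and 173 CPM in MEF and at 4.50 and 0.268 CPM in MCC. The atypical cadherins Fat4 and Dchs1, which signal between neighbouring cells, fell too, Fat4 from 146 and 54.4 to 6.63 and 2.76 CPM and Dchs1 from 78.9 and 136 to 6.50 and 5.03 CPM. The upstream kinase Stk4 (MST1), which also serves in leukocyte adhesion, rose from 52.2 and 45.03 to 136 and 144 CPM (log2 fold change 1.59 ± 0.14 and 1.57 ± 0.14, edgeR adjusted p = 0.00267 and 0.00193). Its relative Stk3 (MST2) was at 38.8 and 35.96 CPM in MEF and at 27.6 and 27.8 CPM in MCC, and it did not pass with either library. Lats1, the kinase that phosphorylates Yap1, was at 101 and 94.4 CPM in MEF and at 85.4 and 75.5 CPM in MCC and did not pass with either library. Lats2 fell, to 16.7 and 14.1 CPM, although other genes share 42.4% of its exonic bases and its level is uncertain. The count of higher members moved from 1 to 4 with library 2 when MEF library 1 was left out, and from 3 to 1 with library 1 under median-ratio size factors.

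Most targets of Yap1 and the TEAD factors fell. Of 22 tested, 16 were called lower with library 1 and 18 with library 2, with medians of -2.58 and -5.89. Igfbp3, a secreted binder of insulin-like growth factors, was at 568 and 516 CPM in MEF and at 2.42 and 0.161 CPM in MCC (log2 fold change -7.70 ± 0.61 and -11.69 ± 0.77, edgeR adjusted p = 0.00186 and 0.000834). Its level in library 1 was 0.446% of the MEF mean. Ccn1, a matrix-bound signal of stretched cells, was at 791 and 613 CPM in MEF and at 85.6 and 7.20 CPM in MCC (log2 fold change -2.93 ± 0.23 and -6.61 ± 0.28, edgeR adjusted p = 0.0018 and 0.000292), and Ptpn14, a phosphatase that also holds Yap1 back, at 340.5 and 263 CPM in MEF and at 24.2 and 0.829 CPM in MCC. Axl, a receptor kinase that macrophages also use to clear dead cells, fell less, to 151 and 137 CPM from 731 and 395 CPM. Nt5e (CD73), which makes adenosine, was at 6.42 and 6.16 CPM in MEF and at 24.6 and 6.87 CPM in MCC, and it was called higher with library 1 only.

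**Figure D4:**
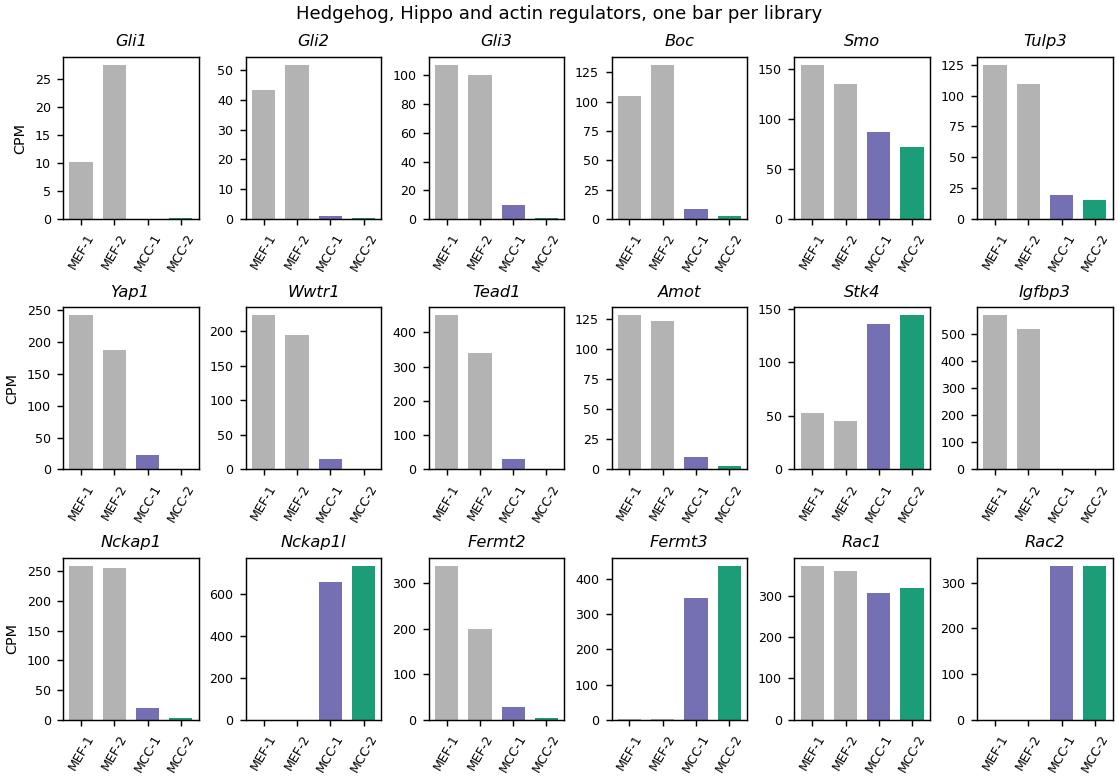
Levels in CPM of 18 Hedgehog, Hippo and actin regulator genes, one bar for each of the 2 MEF libraries (grey), MCC library 1 (purple) and MCC library 2 (green), with each axis starting at 0. Gli1 and Igfbp3 are near 0 in both MCC libraries, Yap1 and Tead1 keep a low bar in MCC library 1, and Nckap1l, Fermt3 and Rac2 rise from almost no bar in MEF.

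Genes of actin stress fibres fell, and most of a list of podosome, lamellipodium and leukocyte actin genes rose. That list, called podosome and lamellipodium genes below, holds leukocyte genes such as Rac2, Nckap1l and Fgd2. Some of its members are also general leukocyte markers, and the part of leukocyte identity in its rise was not tested. Of 34 stress-fibre and focal adhesion genes 21 were called lower with library 1 and 28 with library 2, and of 34 podosome and lamellipodium genes 24 and 25 were called higher. The medians were -2.39 and -3.97 for the first list, with -1.56 for library 1 without MEF library 1, and 1.91 and 1.94 for the second. Cald1, which steadies actin filaments, was at 2298 and 1005 CPM in MEF and at 194 and 26.2 CPM in MCC (log2 fold change -2.98 ± 0.57 and -5.97 ± 0.68, edgeR adjusted p = 0.0167 and 0.00332), and Parva, a link from integrins to actin, at 511 and 338 CPM in MEF and at 29.6 and 1.90 CPM in MCC (log2 fold change -3.74 ± 0.44 and -7.80 ± 0.56, edgeR adjusted p = 0.00484 and 0.000997). The filamin Flna, an actin crosslinker, fell less, to 1060.0 and 1058 CPM from 4709 and 2615 CPM. Talin 1 (Tln1), the integrin activator that both cell types use, was at 1136 and 738 CPM in MEF and at 774 and 834 CPM in MCC and did not pass with either library, and paxillin (Pxn) rose to 205 and 242 CPM from 126 and 156 CPM.

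Several related genes moved in opposite directions. Nckap1, a subunit of the WAVE complex that starts branched actin, was at 260.00 and 255 CPM in MEF and at 19.9 and 2.57 CPM in MCC (log2 fold change -3.59 ± 0.29 and -6.65 ± 0.35, edgeR adjusted p = 0.00196 and 0.000478). Its blood-cell relative Nckap1l (HEM1) was at 0.732 and 0.386 CPM in MEF and at 656 and 735 CPM in MCC (log2 fold change 10.30 ± 0.34 and 10.36 ± 0.34, edgeR adjusted p = 0.000233 and 0.000193). Fermt2 (kindlin-2), which helps talin switch on integrins, was at 339 and 199 CPM in MEF and at 28.998 and 2.70 CPM in MCC, while Fermt3 (kindlin-3), its counterpart in blood cells, was at 0.894 and 0.953 CPM in MEF and at 345 and 438 CPM in MCC (log2 fold change 8.64 ± 0.16 and 8.88 ± 0.16, edgeR adjusted p = 0.000132 and 0.000127). The GTPase Rac2 of leukocytes was at 0.0542 and 0 CPM in MEF and at 338 and 337 CPM in MCC, whereas the widely used Rac1 was at 372 and 359 CPM in MEF and at 305 and 318 CPM in MCC and did not pass with either library. Other genes share 51.4% of the exonic bases of Rac1. Fgd2, an activator of Cdc42 in leukocytes, rose to 166 and 187 CPM from 0.407 and 0.773 CPM, and Arhgap45 to 258 and 362 CPM from 3.12 and 2.81 CPM. Of the podosome and lamellipodium list 2 members fell with each library, Nckap1 and Tmsb10. Tmsb10, which binds single actin subunits, fell from 622 and 403 to 159 and 160.3 CPM.

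Caveolae, the flask-shaped pits of the fibroblast surface, fell in the genes of their coat. Of 11 members 6 were called lower with each library. Cavin1, which is needed to form the coat, was at 937 and 857 CPM in MEF and at 71.1 and 6.02 CPM in MCC (log2 fold change -3.55 ± 0.25 and -7.22 ± 0.30, edgeR adjusted p = 0.00134 and 0.000284). Cav1, the main membrane protein of the pit, was at 787 and 443 CPM in MEF and at 192 and 81.2 CPM in MCC (log2 fold change -1.57 ± 0.41 and -2.92 ± 0.45, edgeR adjusted p = 0.0367 and 0.00741). Ehd2, the ATPase at the neck of the pit, was at 645 and 467 CPM in MEF and at 40.6 and 1.85 CPM in MCC (log2 fold change -3.67 ± 0.34 and -8.23 ± 0.45, edgeR adjusted p = 0.00285 and 0.000512), while its relative Ehd4, an endosomal ATPase, rose to 535 and 431 CPM from 102 and 91.6 CPM (log2 fold change 2.57 ± 0.14 and 2.16 ± 0.14, edgeR adjusted p = 0.000769 and 0.000791). Cav1 thus kept more of its level in both MCC libraries than Cavin1 or Ehd2.

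Cell-to-cell contact genes fell as well. Of 26 cadherin, nectin and junction genes 17 were called lower with library 1 and 19 with library 2, with medians of -2.43 and -3.24. Cdh11, the cadherin of mesenchymal cells, was at 889 and 542 CPM in MEF and at 19.2 and 2.59 CPM in MCC (log2 fold change -5.11 ± 0.43 and -8.10 ± 0.51, edgeR adjusted p = 0.00225 and 0.000738), and Cdh2, N-cadherin, at 295 and 359.5 CPM in MEF and at 18.5 and 0.321 CPM in MCC. Tjp1 (ZO-1), a junction scaffold, was at 239 and 243 CPM in MEF and at 20.1 and 1.23 CPM in MCC, and Gja1, the channel protein of gap junctions, fell to 59.3 and 39.2 CPM from 320.1 and 271 CPM. The exception was Cadm1, an adhesion molecule of the immunoglobulin family, which rose from 43.8 and 91.5 to 254 and 265 CPM (log2 fold change 2.02 ± 0.43 and 1.97 ± 0.43, edgeR adjusted p = 0.0213 and 0.0194).

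Genes of the nuclear lamina and envelope moved in both directions, at shares close to those of all genes given above. Of 16 members 3 were called higher and 4 lower with each library. Lmna, the lamin of stiff tissues, was at 742 and 636 CPM in MEF and at 369 and 386 CPM in MCC (log2 fold change -0.80 ± 0.17 and -0.84 ± 0.17, edgeR adjusted p = 0.0217 and 0.0163), and Lmnb2 rose from 24.1 and 32.6 to 66.6 and 73.6 CPM (log2 fold change 1.34 ± 0.21 and 1.38 ± 0.21, edgeR adjusted p = 0.00966 and 0.00711). Sun1, Syne1 and Syne2, which tie the nucleus to the cytoskeleton, fell, with Syne2 at 33.8 and 54.98 CPM in MEF and at 14.2 and 8.67 CPM in MCC. Without MEF library 2 the members called higher were 6 with each MCC library.

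In the secretory pathway, the genes that fell included those that fold and export collagen. Of 39 members 17 were called lower with each library and 3 higher, with medians of -0.47 and -0.53, or -0.20 and -0.33 without MEF library 1. Serpinh1 (HSP47), the collagen chaperone, was at 1829.9 and 985 CPM in MEF and at 149 and 21.9 CPM in MCC (log2 fold change -3.13 ± 0.49 and -6.00 ± 0.58, edgeR adjusted p = 0.00989 and 0.00212). The prolyl hydroxylase subunits P4ha2 and P4ha3 and the lysyl hydroxylase Plod2, which modify collagen chains, fell, P4ha2 from 137 and 72.03 to 13.6 and 5.14 CPM, P4ha3 from 115 and 49.6 to 5.64 and 0.348 CPM and Plod2 from 299 and 159 to 23.1 and 5.86 CPM. Fkbp10, a collagen foldase, was at 421 and 251 CPM in MEF and at 28.9 and 2.46 CPM in MCC. Creb3l1 and Sec23a, a factor and a coat protein of bulky cargo export, fell too, with Sec23a at 255 and 161 CPM in MEF and at 52.3 and 40.3 CPM in MCC.

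Genes of general entry and folding showed other patterns. Hspa5 (BiP), the main chaperone of the endoplasmic reticulum, was at 929 and 822 CPM in MEF and at 1025 and 987 CPM in MCC, and Pdia6, a disulfide isomerase, at 376 and 333 CPM in MEF and at 365 and 384 CPM in MCC. Neither passed with either library. Xbp1, the factor that expands the secretory pathway, rose to 155 and 148 CPM from 104 and 84.2 CPM, but lost its call with MCC library 2 without MEF library 2. Sec11c, a catalytic subunit of signal peptidase, rose to 60.1 and 70.2 CPM from 20.3 and 17.5 CPM (log2 fold change 1.78 ± 0.15 and 1.90 ± 0.15, edgeR adjusted p = 0.00234 and 0.00136). The members called higher were 7 with each library without MEF library 1 and 6 with library 1 without MEF library 2, and those called lower were 26 with library 2 without MEF library 2.

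Enzymes that build glycosaminoglycans, the long sugar chains of the matrix, fell in part. Of 31 tested, 15 were called lower with library 1, 19 with library 2 and 4 higher with each. Csgalnact1, which starts chondroitin chains, was at 63.97 and 35.8 CPM in MEF and at 2.34 and 0.0535 CPM in MCC, and Chpf, which lengthens them, at 198 and 139 CPM in MEF and at 19.3 and 7.62 CPM in MCC (log2 fold change -3.02 ± 0.34 and -4.46 ± 0.37, edgeR adjusted p = 0.00433 and 0.00149). Hs6st2, a heparan sulfate 6-O-sulfotransferase, was at 118 and 56.2 CPM in MEF and at 8.58 and 0.535 CPM in MCC. The 4 that rose with both libraries were Xylt2, Ndst2, Chst3 and Dse. Ndst1, the main heparan N-sulfotransferase of many tissues, fell to 115 and 82.7 CPM from 313 and 316 CPM, while its relative Ndst2 rose to 80.3 and 88.97 CPM from 43.04 and 47.2 CPM (log2 fold change 0.94 ± 0.16 and 0.98 ± 0.16, edgeR adjusted p = 0.012 and 0.00837).

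Genes of serpins and other protease inhibitors were called lower more often than higher, with medians of -1.71 and -3.44. Of 24 tested, 12 were called lower with library 1 and 13 with library 2, and 3 higher with each. Timp3, the matrix-bound inhibitor of metalloproteinases, was at 729 and 608 CPM in MEF and at 23.4 and 1.98 CPM in MCC, although other genes share 21.3% of its exonic bases. Serpine2, an inhibitor of thrombin, was at 596 and 869 CPM in MEF and at 57.3 and 47.6 CPM in MCC (log2 fold change -3.57 ± 0.42 and -3.94 ± 0.43, edgeR adjusted p = 0.00482 and 0.0029) and Timp2 at 1971 and 1605 CPM in MEF and at 473 and 392 CPM in MCC. The cysteine protease inhibitors Cst3 and Cstb rose, Cst3 from 393 and 226 to 704 and 755 CPM (log2 fold change 1.29 ± 0.33 and 1.29 ± 0.33, edgeR adjusted p = 0.0352 and 0.0316). The members called higher with library 1 numbered 8 without MEF library 1 and 1 with median-ratio size factors.

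Growth genes moved by smaller folds. Among 13 genes of the Myc and Max network, 5 were called higher with each library, and 2 and 3 lower. Max, the partner that Myc needs to bind DNA, rose from 79.6 and 72.4 to 126 and 109 CPM (log2 fold change 0.84 ± 0.14 and 0.52 ± 0.14, edgeR adjusted p = 0.0115 and 0.0343). Mxi1, which competes with Myc for Max, rose too, from 16.995 and 13.7 to 65.6 and 64.1 CPM (log2 fold change 2.20 ± 0.17 and 2.06 ± 0.18, edgeR adjusted p = 0.00187 and 0.00157), as did Mlxip, a glucose-responsive relative, to 91.9 and 110.2 CPM from 46.9 and 50.2 CPM.

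Ribosome biogenesis, the best known programme downstream of Myc, rose broadly. Of 53 members 41 were called higher with library 1 and 38 with library 2, 38 of them with both, and 1 lower, with medians of 0.96 and 0.88. Ncl and Npm1, abundant nucleolar proteins, rose, Ncl from 511 and 706 to 1354 and 1615 CPM (log2 fold change 1.26 ± 0.23 and 1.41 ± 0.23, edgeR adjusted p = 0.0153 and 0.00917) and Npm1 from 604 and 697 to 1276 and 1429.9 CPM. Dkc1 and Nhp2, of the complex that makes pseudouridine in ribosomal RNA, rose, Dkc1 from 28.7 and 45.3 to 116 and 114 CPM and Nhp2 from 38.3 and 40.1 to 117 and 126 CPM. Rrp1b was at 25.97 and 27.8 CPM in MEF and at 85.1 and 93.04 CPM in MCC (log2 fold change 1.77 ± 0.13 and 1.79 ± 0.13, edgeR adjusted p = 0.00158 and 0.00103), and Taf1d, a subunit of the selectivity factor of RNA polymerase I, at 37.8 and 57.8 CPM in MEF and at 104 and 110.2 CPM in MCC. Rrn3, which recruits that polymerase, was at 95.5 and 85.5 CPM in MEF and at 86.5 and 72.1 CPM in MCC and did not pass with either library. Gnl3l, a nucleolar GTPase, was the member that fell, from 95.1 and 80.7 to 50.7 and 42.1 CPM, while its relative Gnl3 rose from 68.5 and 83.98 to 165 and 185 CPM.

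Myc and Max bind the E-box CACGTG. RefSeq promoters on GRCm38.p6, taken as the 250 bases before each gene start, were searched for it on both strands. Of 46 ribosome biogenesis genes with a promoter in the table, 3 held this E-box (6.52%), Imp4, Nop2 and Rrn3, against 9.39% of 12248 tested genes with a promoter, 10.6% of those that rose with each MCC library and 8.63% of those that fell. The pair below is shown because both genes rose with each library. The capitals mark the E-box, which starts 121 bases before the Imp4 start and 60 before the Nop2 start, and both are on the plus strand at chr1:34439678-34439743 and chr6:125131793-125131858. Imp4, of the small-subunit processome, was at 51.3 and 44.7 CPM in MEF and at 118 and 127 CPM in MCC, and Nop2, an RNA methyltransferase, at 85.6 and 87.9 CPM in MEF and at 148 and 129 CPM in MCC. A match is a description of these letters and shows no binding.
Imp4: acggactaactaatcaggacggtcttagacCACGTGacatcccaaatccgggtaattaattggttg
Nop2: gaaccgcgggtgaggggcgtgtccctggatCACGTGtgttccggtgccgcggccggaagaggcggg

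Of 42 translation factors tested, 11 were called higher with each library and 1 lower, against 19.8% and 20% of all genes called higher. Eif4a1, the helicase that opens messenger RNA leaders, rose from 687 and 791 to 1373 and 1377 CPM, and Eif5a, which helps ribosomes past stalls, from 604 and 592 to 1002 and 1114 CPM (log2 fold change 0.85 ± 0.14 and 0.90 ± 0.14, edgeR adjusted p = 0.0111 and 0.0076). Eif4ebp1, which blocks cap binding, fell from 132 and 97.1 to 49.8 and 51.8 CPM (log2 fold change -1.10 ± 0.23 and -1.14 ± 0.23, edgeR adjusted p = 0.0205 and 0.0155), while its relative Eif4ebp2 rose from 148 and 188 to 258 and 277 CPM. The count of higher calls depended on the libraries: it was 27 and 20 without MEF library 1, 20 and 17 without MEF library 2, and 5 and 4 with median-ratio size factors. The lower calls were 2 and 3 without MEF library 1, and 6 with library 2 without MEF library 2.

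The enzymes that charge transfer RNAs were mixed, with 6 and 5 of 23 called higher with libraries 1 and 2 and 2 and 3 lower. Farsb, for phenylalanine, rose from 53.3 and 47.6 to 103 and 99.4 CPM, and Aars, for alanine, fell from 393 and 315 to 153 and 165 CPM (log2 fold change -1.10 ± 0.19 and -1.10 ± 0.19, edgeR adjusted p = 0.0123 and 0.00989). The higher calls were 13 and 10 without MEF library 1, while the lower calls rose to 7 with each library without MEF library 2.

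Chaperones moved in both directions. Their higher calls were somewhat above the shares of all genes given above, and their lower calls were below them. Of 34 tested, 10 and 9 were called higher and 5 and 8 lower. Hspa8 and the mitochondrial chaperonin Hspd1, both needed by unstressed cells, rose, Hspa8 from 1381 and 1317 to 2278 and 2131 CPM and Hspd1 from 327 and 391 to 604 and 583 CPM. The small heat-shock proteins Hspb1 and Cryab, which protect the cytoskeleton, fell, Hspb1 from 148 and 64.1 to 8.71 and 0.776 CPM and Cryab from 243 and 108 to 13.7 and 0.910 CPM. The stress-induced Hspa1b fell from 22.6 and 20.1 to 6.11 and 3.32 CPM. Without MEF library 1 the higher calls were 17 and 14 and the lower calls with library 1 were 8, and without MEF library 2 the higher calls with library 1 were 16.

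Of 34 mitochondrial import and translation genes 18 were called higher with library 1 and 15 with library 2, with medians of 0.54 and 0.47. C1qbp, which supports mitochondrial ribosomes, rose from 82.3 and 85.5 to 193 and 206 CPM (log2 fold change 1.30 ± 0.14 and 1.30 ± 0.14, edgeR adjusted p = 0.00371 and 0.00263), and the prohibitin Phb2 from 102 and 114 to 219.8 and 250.01 CPM. The higher calls with library 2 were 25 without MEF library 1.

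Splicing factors were called higher more often than lower, mostly by small folds. Of 43 tested, 16 and 15 were called higher and 2 lower with each library. Ptbp3, a splicing repressor known from blood cells, rose from 83.5 and 72.2 to 351 and 357 CPM (log2 fold change 2.28 ± 0.14 and 2.20 ± 0.14, edgeR adjusted p = 0.0011 and 0.000811). Rbfox2, which sets mesenchymal exons, fell from 325 and 234 to 44.1 and 22.1 CPM (log2 fold change -2.56 ± 0.26 and -3.66 ± 0.28, edgeR adjusted p = 0.00339 and 0.00116). The muscleblind genes split, with Mbnl1 rising to 257 and 306 CPM from 186 and 139 CPM and Mbnl2 falling to 123 and 107 CPM from 277 and 229 CPM. The number of higher calls was unstable, with 28 and 26 without MEF library 1, 33 and 32 without MEF library 2, 3 and 8 with library totals left unscaled, and 7 with library 1 under median-ratio size factors. The lower calls with library 2 were 6 without MEF library 1.

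Nuclear pore and transport genes differed between the libraries in their calls, with 15 and 8 of 36 called higher and 2 and 3 lower. Rcc1, the exchange factor that drives nuclear transport, rose from 31.8 and 35.1 to 77.3 and 70.5 CPM (log2 fold change 1.32 ± 0.14 and 1.08 ± 0.14, edgeR adjusted p = 0.00374 and 0.00465), and Ipo9, an importer of histones, fell from 308 and 284 to 160.4 and 149 CPM. With library 1 the higher calls were 23 without MEF library 2, 6 unscaled and 7 with median-ratio size factors. With library 2 they were 15, and 7 lower, when either MEF library was left out.

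Cell cycle genes fell among the regulators of its start and rose among those of replication. Cyclins D1, D2 and D3, which carry growth signals into the cycle through Cdk4 and Cdk6, all fell. Ccnd1 was at 930.3 and 1081 CPM in MEF and at 107 and 54.2 CPM in MCC (log2 fold change -3.12 ± 0.20 and -4.21 ± 0.22, edgeR adjusted p = 0.00117 and 0.000453), with 23.4% of its exonic bases shared with other genes. Ccnd2 was at 1867 and 1019.5 CPM in MEF and at 75.3 and 3.72 CPM in MCC (log2 fold change -4.15 ± 0.54 and -8.60 ± 0.68, edgeR adjusted p = 0.00623 and 0.00133), and Ccnd3 at 217 and 184 CPM in MEF and at 63.7 and 62.03 CPM in MCC (log2 fold change -1.55 ± 0.19 and -1.69 ± 0.20, edgeR adjusted p = 0.00574 and 0.00347). Ccnd2 was nearly absent from library 2, whereas Ccnd3 was at nearly the same level in both MCC libraries. Cdk6 fell from 73.1 and 67.03 to 23.3 and 26.5 CPM, and Cdk4 was at 296 and 336 CPM in MEF and at 288 and 296 CPM in MCC and did not pass with either library. The inhibitors Cdkn1a (p21), Cdkn2a and Cdkn2b fell with them, Cdkn2b to 5.20 and 1.12 CPM from 142 and 129 CPM. Cdkn1c (p57), an imprinted inhibitor, was at 89.02 and 62.01 CPM in MEF and at 0.260 and 0.134 CPM in MCC, in a region where other genes share 30.7% of its exonic bases. E2f4, which represses cell cycle genes in resting cells, rose from 53.6 and 49.1 to 91.7 and 97.2 CPM (log2 fold change 0.94 ± 0.13 and 0.92 ± 0.13, edgeR adjusted p = 0.00782 and 0.00642). Over the 18 members, 9 were called lower with each library, and 1 and 3 higher. When either MEF library was left out, the higher calls with library 1 were 4.

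Replication genes rose in part, with medians of 0.96 and 0.87. Of 43 tested, 24 were called higher with library 1 and 16 with library 2, 15 of them with both, and 0 lower. Cdt1, which loads the helicase onto origins, was at 15.1 and 27.05 CPM in MEF and at 82.5 and 106 CPM in MCC (log2 fold change 2.08 ± 0.34 and 2.33 ± 0.34, edgeR adjusted p = 0.0116 and 0.00669). Mcm10, which helps to start forks, was at 10.8 and 19.1 CPM in MEF and at 51.9 and 49.8 CPM in MCC (log2 fold change 1.90 ± 0.34 and 1.74 ± 0.34, edgeR adjusted p = 0.0136 and 0.0144), and E2f2, an activator of these genes, at 2.47 and 6.18 CPM in MEF and at 18.4 and 21.5 CPM in MCC (log2 fold change 2.19 ± 0.55 and 2.31 ± 0.55, edgeR adjusted p = 0.0332 and 0.0253). Both MCC libraries were above both MEF libraries for each of these. Mcm2, a subunit of the helicase, was at 56.9 and 109.5 CPM in MEF and at 125 and 111 CPM in MCC and did not pass with either library.

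MEF library 2 stood above MEF library 1 in 41 of the 43 replication genes and in all 34 mitosis genes tested, and the counts depended on which MEF library was used. Without MEF library 2 the replication genes called higher with library 2 were 36, without MEF library 1 they were 27, and with library 1 they were 11 unscaled and 14 with median-ratio size factors. The replication genes called lower were 2 and 3 without MEF library 1, and 1 with library 2 without MEF library 2. Of 34 mitosis genes 6 were called higher with each library, 28 and 27 without MEF library 2, 15 and 11 without MEF library 1, and 3 with library 1 unscaled. Those called lower were 0 and 1, and 2 and 4 without MEF library 1. Bub1b, of the spindle checkpoint, was at 32.99 and 53.8 CPM in MEF and at 143 and 146 CPM in MCC (log2 fold change 1.83 ± 0.29 and 1.75 ± 0.29, edgeR adjusted p = 0.0105 and 0.00944). Incenp, a partner of the Aurora B kinase, rose from 41.3 and 70.1 to 153 and 157 CPM, and Cenpa, the histone of centromeres, from 23.7 and 44.5 to 87.8 and 119.8 CPM. With both MEF libraries, the share of mitosis genes called higher was close to that of all genes given above. These named genes do not set the list apart. Cdk1 and Ccnb1, the drivers of mitosis, did not pass with either library, with Cdk1 at 51.1 and 79.8 CPM in MEF and at 97.9 and 95.02 CPM in MCC and Ccnb1 at 47.1 and 93.9 CPM in MEF and at 99.7 and 93.8 CPM in MCC.

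**Figure D5:**
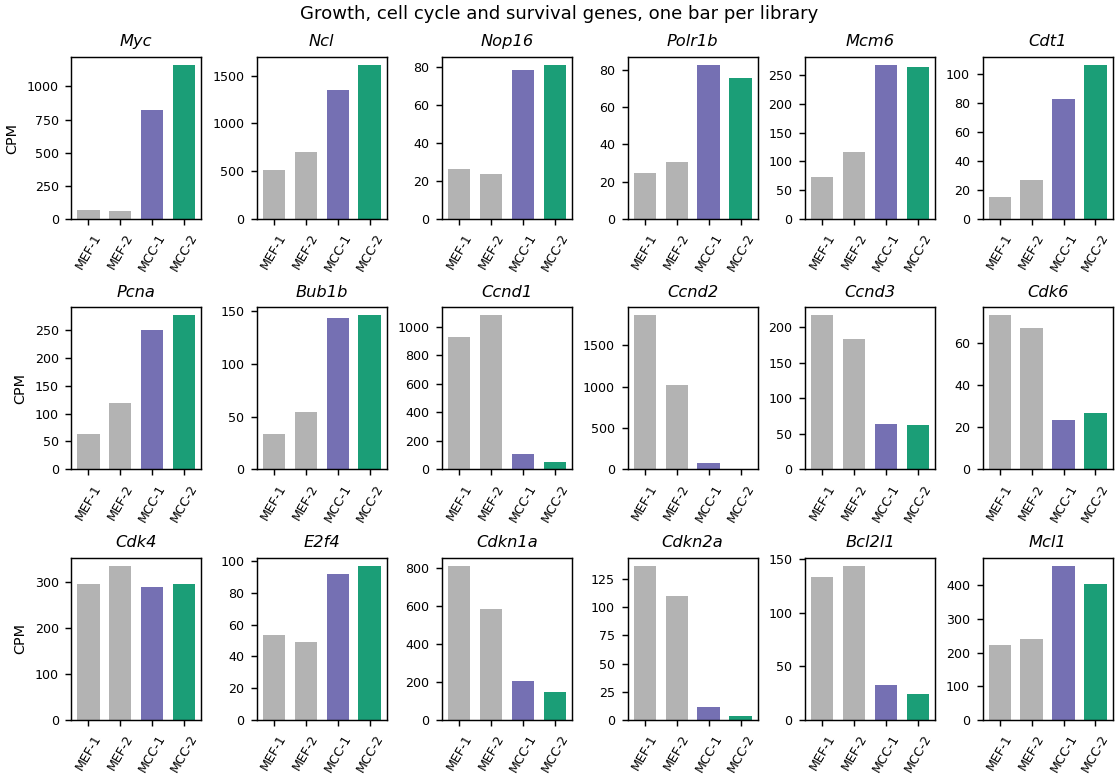
Levels in CPM of 18 growth, cell cycle and survival genes, one bar for each of the 2 MEF libraries (grey), MCC library 1 (purple) and MCC library 2 (green), with each axis starting at 0. The D cyclins and Cdk6 are low in both MCC libraries, while Mcm6, Cdt1 and Bub1b are above both MEF libraries.

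Most genes of a list of p53 targets and regulators fell. The list also holds Trp53, which encodes p53, and the inhibitors Cdkn2a and Cdkn2b, which are counted among the cell cycle regulators above as well. Of 25 tested, 19 were called lower with library 1 and 20 with library 2, with medians of -1.31 and -1.62. Eda2r, a death receptor relative, was at 128 and 113 CPM in MEF and at 9.36 and 1.74 CPM in MCC (log2 fold change -3.58 ± 0.59 and -6.11 ± 0.70, edgeR adjusted p = 0.0115 and 0.00335), and Perp, a membrane protein of the death response, at 120.2 and 126 CPM in MEF and at 4.99 and 0.776 CPM in MCC (log2 fold change -4.52 ± 0.24 and -7.30 ± 0.29, edgeR adjusted p = 0.000743 and 0.00026). Mdm2, the ligase that degrades p53, fell from 299 and 369 to 133 and 83.997 CPM, and Trp53inp1, which amplifies the response, from 227 and 298 to 76.2 and 68.5 CPM. Trp53 itself was at 144 and 138 CPM in MEF and at 177 and 173 CPM in MCC, called higher with library 1 only. Against the rest Sesn1, linked to nutrient and stress sensing, rose from 23.3 and 29.2 to 327 and 308 CPM (log2 fold change 3.75 ± 0.20 and 3.55 ± 0.20, edgeR adjusted p = 0.000721 and 0.000539), while its relative Sesn2 fell from 124 and 117 to 45.1 and 42.7 CPM. Calls in the higher direction with library 1 went from 3 to 1 unscaled and to 1 with median-ratio size factors, and with library 2 from 1 to 3 without MEF library 1.

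Survival genes moved in opposite directions. Of 35 genes of the Bcl2 family and of cell death, 17 were called higher and 6 lower with each library. Bcl2l1 (Bcl-xL), which keeps mitochondria sealed, was at 133 and 144 CPM in MEF and at 32.7 and 23.8 CPM in MCC (log2 fold change -1.97 ± 0.14 and -2.54 ± 0.15, edgeR adjusted p = 0.00155 and 0.000619), and Bcl2 at 15.5 and 18.1 CPM in MEF and at 3.80 and 1.95 CPM in MCC. Mcl1, a short-lived guardian on which macrophages rely, rose from 222 and 239 to 459 and 404 CPM (log2 fold change 1.10 ± 0.15 and 0.81 ± 0.15, edgeR adjusted p = 0.00744 and 0.0137). Bcl2a1a, Bcl2a1b and Bcl2a1d, guardians of blood cells, had no counts in MEF. Bcl2a1d was at 2.55 and 3.53 CPM in MCC. These copies are near-identical and their counts are uncertain. The death-promoting Bcl2l11 (BIM) and Bmf rose as well, Bmf from 5.01 and 3.74 to 66.97 and 82.8 CPM (log2 fold change 4.04 ± 0.21 and 4.24 ± 0.21, edgeR adjusted p = 0.000715 and 0.000426).

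Of the genes tied to inflammatory cell death, Casp1, which matures IL-1, was at 0.325 and 0.464 CPM in MEF and at 58.6 and 64.5 CPM in MCC (log2 fold change 7.30 ± 0.23 and 7.34 ± 0.23, edgeR adjusted p = 0.00022 and 0.000187). Gsdmd, the pore protein that it cleaves, was at 10.4 and 10.5 CPM in MEF and at 89.5 and 102 CPM in MCC (log2 fold change 3.21 ± 0.14 and 3.29 ± 0.14, edgeR adjusted p = 0.000388 and 0.00028). Casp8 and Casp9, which start apoptosis, rose, Casp8 from 37.2 and 30.4 to 81.5 and 98.7 CPM and Casp9 from 15.3 and 19.2 to 41.04 and 48.4 CPM. Casp12, a caspase of the endoplasmic reticulum, fell from 36.9 and 22.4 to 4.66 and 0.321 CPM. Birc3, an inhibitor of death receptor signalling, rose from 16.5 and 16.4 to 52.98 and 65.7 CPM.

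Antioxidant genes moved in both directions. Of 29 genes linked to NRF2 and glutathione, 11 were called higher and 6 lower with each library. The pentose phosphate enzymes G6pdx, Taldo1 and Tkt, which supply NADPH, all rose, Taldo1 from 97.4 and 103 to 299.5 and 364 CPM (log2 fold change 1.69 ± 0.12 and 1.86 ± 0.12, edgeR adjusted p = 0.00155 and 0.000833) and G6pdx from 84.8 and 121 to 277 and 316 CPM (log2 fold change 1.54 ± 0.23 and 1.62 ± 0.23, edgeR adjusted p = 0.00838 and 0.00569). The ferritin chains, which store iron, rose too, Fth1 to 4757 and 4396 CPM from 1159 and 2134 CPM, and Ftl1 to 2303 and 2455 CPM with 34.6% of its exonic bases shared. Hmox1, which frees iron from heme, rose from 238 and 299.8 to 965 and 574 CPM, and Blvrb, which reduces the product, from 14.9 and 16.95 to 60.6 and 51.7 CPM (log2 fold change 2.04 ± 0.16 and 1.70 ± 0.16, edgeR adjusted p = 0.0019 and 0.00213). Me1, another source of NADPH, fell from 163 and 127 to 29.4 and 14.2 CPM, and Nqo1, the classic NRF2 target, was at 33.9 and 56.1 CPM in MEF and at 13.4 and 1.82 CPM in MCC (log2 fold change -1.64 ± 0.37 and -4.62 ± 0.46, edgeR adjusted p = 0.0259 and 0.00233). Gsta4, which clears lipid aldehydes, was at 54.8 and 91.1 CPM in MEF and at 4.63 and 0.936 CPM in MCC. The lower calls were 12 and 14 without MEF library 1.

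Of 26 stress response genes under ATF4, 8 and 9 were called lower, against 22.6% and 27.8% of all genes, and 3 higher with each library, against 19.8% and 20%. Atf5 was at 233 and 105 CPM in MEF and at 26.996 and 21.8 CPM in MCC (log2 fold change -2.54 ± 0.55 and -2.95 ± 0.57, edgeR adjusted p = 0.0228 and 0.0139), Vldlr, a lipoprotein receptor, at 52.3 and 62.9 CPM in MEF and at 3.56 and 0.241 CPM in MCC, and Pycr1, of proline synthesis, at 29.6 and 13.2 CPM in MEF and at 3.95 and 3.85 CPM in MCC. Atf3, a stress factor of activated macrophages, rose from 5.26 and 24.4 to 107 and 101 CPM (log2 fold change 2.95 ± 0.80 and 2.77 ± 0.80, edgeR adjusted p = 0.0397 and 0.0421), as did Shmt2, of mitochondrial one-carbon metabolism, from 115 and 104 to 226 and 274 CPM. The lower calls with library 1 were 13 without MEF library 1 and 15 without MEF library 2, and with library 2 they were 16 without MEF library 2.

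Hypoxia targets had no common direction, with 2 and 3 of 21 higher and 5 and 7 lower. Adm, a vasodilator peptide, was at 111 and 57.01 CPM in MEF and at 3.07 and 0.401 CPM in MCC (log2 fold change -4.67 ± 0.53 and -7.70 ± 0.66, edgeR adjusted p = 0.00448 and 0.00161), Vegfa, the vessel growth factor, at 106 and 83.4 CPM in MEF and at 36.5 and 17.2 CPM in MCC, and Slc2a1, a glucose transporter, at 117 and 152 CPM in MEF and at 57.6 and 34.7 CPM in MCC. Pfkfb3, which speeds glycolysis, rose from 71.2 and 70.5 to 123 and 105 CPM. With both MEF libraries, the shares of hypoxia targets called lower were close to or a little above those of all genes given above. The shares called higher were below those of all genes. Without MEF library 1 the higher calls were 8 and 7 and the lower calls 8 and 11. Without MEF library 2 the higher calls were 5 with each library and the lower calls with library 1 were 9, and unscaled totals gave 4 higher with library 1.

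Among the genes of the circadian clock more fell than rose. Of 22 genes 8 and 10 were called lower, 7 of them with both libraries, and 2 and 1 higher. The activators Arntl (BMAL1) and Clock fell, Arntl from 47.8 and 74.9 to 18.1 and 16.6 CPM (log2 fold change -1.65 ± 0.32 and -1.88 ± 0.32, edgeR adjusted p = 0.0168 and 0.0102). Rora, which drives Arntl, was at 29.6 and 27.4 CPM in MEF and at 4.32 and 2.19 CPM in MCC (log2 fold change -2.62 ± 0.27 and -3.70 ± 0.30, edgeR adjusted p = 0.00371 and 0.00136), and Nr1d1, which represses it, fell from 24.9 and 25.4 to 8.89 and 10.3 CPM. The repressors Bhlhe40 and Bhlhe41 went opposite ways, Bhlhe40 from 66.1 and 69.97 to 15.2 and 10.4 CPM (log2 fold change -2.06 ± 0.20 and -2.70 ± 0.20, edgeR adjusted p = 0.00296 and 0.00118) and Bhlhe41 from 6.88 and 9.82 to 31.3 and 17.9 CPM (log2 fold change 2.01 ± 0.25 and 1.10 ± 0.25, edgeR adjusted p = 0.00534 and 0.023). The sources used here do not give the time of day of collection.

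Retinoic acid signalling fell in its synthesis and carrier genes. Of 16 members 10 and 12 were called lower and 3 higher with each library. The medians were -2.52 and -5.23, the latter -4.59 with members at 0 counts set to their bound. Crabp1, which carries retinoic acid in the cytosol, was at 173 and 268 CPM in MEF and at 0.416 and 0.348 CPM in MCC (log2 fold change -8.93 ± 0.61 and -9.29 ± 0.62, edgeR adjusted p = 0.00129 and 0.000845). The synthetic enzyme Aldh1a1 was at 23.3 and 24.1 CPM in MEF and at 0.104 and 0 CPM in MCC and Aldh1a2 at 14.3 and 12.98 CPM in MEF and at 0.286 and 0 CPM in MCC. Rarg, a retinoic acid receptor, fell from 92.1 and 70.1 to 18.8 and 21.5 CPM, whereas the partner receptors Rxra and Rxrb rose, Rxrb from 38.8 and 35.1 to 70.1 and 74.6 CPM (log2 fold change 1.03 ± 0.13 and 1.02 ± 0.13, edgeR adjusted p = 0.00621 and 0.00485). Dhrs3, which returns retinal to retinol, rose from 18.1 and 3.94 to 155 and 165 CPM (log2 fold change 3.92 ± 0.80 and 3.91 ± 0.80, edgeR adjusted p = 0.0196 and 0.0166).

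BMP signalling genes fell, from ligands to targets. Of 30 members 21 were called lower with library 1 and 28 with library 2, and 0 higher with either. The medians were -2.32 and -5.87, the latter -5.56 with bounds. Bmp4 was at 60.7 and 21.8 CPM in MEF and at 1.79 and 0 CPM in MCC, and Bmp6 at 15.5 and 22.9 CPM in MEF and at 0.104 and 0.0268 CPM in MCC. Fstl1, an abundant secreted modulator, was at 3453 and 2312 CPM in MEF and at 116 and 8.19 CPM in MCC (log2 fold change -4.52 ± 0.38 and -8.46 ± 0.47, edgeR adjusted p = 0.00221 and 0.000536). Bmpr1a, a type I receptor, fell from 182 and 196 to 60.6 and 43.3 CPM (log2 fold change -1.54 ± 0.14 and -2.13 ± 0.15, edgeR adjusted p = 0.00271 and 0.000903). The targets Id1, Id3 and Id4 fell, Id1 from 60.1 and 96.4 to 18.2 and 11.05 CPM, while Id2 was at 42.8 and 83.5 CPM in MEF and at 99.4 and 99.03 CPM in MCC and did not pass with either library.

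Notch genes were mixed. Of 22 tested, 9 and 10 were called lower and 3 and 2 higher. Notch3, the receptor of mural cells, was at 101 and 86.4 CPM in MEF and at 3.38 and 0.348 CPM in MCC (log2 fold change -4.68 ± 0.41 and -8.06 ± 0.52, edgeR adjusted p = 0.00239 and 0.000766), and the target Hes1 at 40.3 and 26.8 CPM in MEF and at 4.08 and 0.615 CPM in MCC. Mfng, a sugar transferase that tunes Notch receptors, rose from 0.434 and 0.721 to 30.1 and 28.5 CPM (log2 fold change 5.80 ± 0.29 and 5.62 ± 0.29, edgeR adjusted p = 0.000599 and 0.000462), as did Dtx4, a ubiquitin ligase, from 32.1 and 54.3 to 111 and 93.1 CPM. Without MEF library 2 the higher calls were 7 and 4.

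Of 19 genes regulated by let-7 or known as oncofetal, 10 were called lower and 3 higher with each library. The imprinted H19 RNA was at 3057 and 3476 CPM in MEF and at 30.3 and 6.87 CPM in MCC (log2 fold change -6.64 ± 0.43 and -8.89 ± 0.48, edgeR adjusted p = 0.00117 and 0.000514), and its neighbour Igf2, with 64.5% of its exonic bases shared, at 91.1 and 92.6 CPM in MEF and at 0.364 and 0.268 CPM in MCC. Dlk1, an imprinted surface protein of precursor cells, was at 165 and 458.2 CPM in MEF and at 1.22 and 0.936 CPM in MCC (log2 fold change -7.88 ± 1.02 and -8.37 ± 1.05, edgeR adjusted p = 0.00615 and 0.00429), and Plagl1, an imprinted zinc finger factor, at 180.3 and 184 CPM in MEF and at 3.88 and 0.348 CPM in MCC. Hmga2, a chromatin protein of embryonic cells, fell from 467 and 615 to 95.5 and 43.3 CPM (log2 fold change -2.40 ± 0.23 and -3.64 ± 0.25, edgeR adjusted p = 0.003 and 0.000887). The 3 that rose were Lin28b, which blocks let-7, from 0.379 and 0.541 to 5.88 and 12.7 CPM (log2 fold change 3.77 ± 0.46 and 4.77 ± 0.45, edgeR adjusted p = 0.00546 and 0.00203), Igf2bp3, an RNA-binding protein, from 52.7 and 50.9 to 81.6 and 94.7 CPM, and Arid3a, a factor of haematopoietic cells, from 12.7 and 9.79 to 129.8 and 191 CPM (log2 fold change 3.64 ± 0.20 and 4.09 ± 0.20, edgeR adjusted p = 0.000764 and 0.000402). In MCC library 1, H19 stood at 0.928%, Igf2 at 0.396% and Dlk1 at 0.392% of the MEF mean, below the lower quartile of 3.31% of the 769 genes above.

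Of 8 pluripotency genes tested, 1 and 1 were called higher and 5 and 5 lower. Pou5f1 and Lin28a were at or near 0 in every library and were too low to test. Sox2, which neural and mesenchymal cells of the embryo also use, was at 31.6 and 58.8 CPM in MEF and at 2.26 and 0.0803 CPM in MCC, and Klf4 fell from 99.6 and 121 to 9.60 and 11.2 CPM.

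Long non-coding RNAs moved in both directions, at shares near those of all genes given above. Of 27 tested, 7 and 6 were called higher and 7 and 8 lower. Meg3 and Rian, from the imprinted locus that also holds Dlk1, fell, Meg3 from 568 and 428 to 16.1 and 2.49 CPM and Rian from 477 and 279.9 to 14.02 and 2.01 CPM. Mir17hg, the host of a growth-promoting miRNA cluster that Myc activates, rose from 1.76 and 4.59 to 20.5 and 21.3 CPM (log2 fold change 2.80 ± 0.53 and 2.74 ± 0.53, edgeR adjusted p = 0.0161 and 0.0142). Mir142hg, host of a blood-cell miRNA, was at 0 counts in MEF and 6.06 and 10.2 CPM in MCC, at least 153-fold and 257-fold higher. Pvt1, the neighbour of Myc, fell from 19.2 and 19.5 to 6.48 and 6.74 CPM (log2 fold change -1.47 ± 0.23 and -1.52 ± 0.23, edgeR adjusted p = 0.00964 and 0.00712), opposite to the counts assigned to Myc, in which an introduced copy cannot be told apart. The host transcripts Gas5 and Snhg1, which also hold small nucleolar RNAs, rose, Gas5 from 146 and 143 to 217 and 212 CPM and Snhg1 from 29.7 and 33.6 to 62.7 and 63.3 CPM.

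Cytosolic signalling genes of leukocytes rose. Of 34 kinase, phosphatase and GTPase regulator genes 31 were called higher with each library and 0 lower. The medians were 5.07 and 4.99, or 4.80 and 4.87 with members at 0 counts in MEF set to their bound. The macrophage markers, whose sums are given above, rose with them, and their part in this result was not tested. Syk, which reads phosphorylated receptor tails, was at 18.6 and 19.6 CPM in MEF and at 219 and 232 CPM in MCC (log2 fold change 3.62 ± 0.15 and 3.61 ± 0.15, edgeR adjusted p = 0.000342 and 0.000262), and Btk, a kinase of B cells and macrophages, at 0 and 0.0515 CPM in MEF and at 114 and 122 CPM in MCC. Plcg2, which releases calcium downstream of both, was at 7.70 and 7.32 CPM in MEF and at 201.2 and 222 CPM in MCC (log2 fold change 4.85 ± 0.13 and 4.89 ± 0.13, edgeR adjusted p = 0.000155 and 0.000144), and Pik3cd, a lipid kinase of leukocytes, at 5.01 and 7.21 CPM in MEF and at 223 and 245 CPM in MCC (log2 fold change 5.29 ± 0.24 and 5.32 ± 0.24, edgeR adjusted p = 0.000453 and 0.000324). Inhibitors rose as well. Inpp5d (SHIP1), which removes the lipid signal, was at 1.25 and 0.902 CPM in MEF and at 334 and 325 CPM in MCC (log2 fold change 8.38 ± 0.22 and 8.24 ± 0.22, edgeR adjusted p = 0.000155 and 0.000144), Ptpn6 (SHP1), which strips phosphate from tyrosines, at 0.732 and 1.49 CPM in MEF and at 216 and 222 CPM in MCC, and Dok3, an adaptor that dampens kinase signals, at 1.46 and 1.73 CPM in MEF and at 35.6 and 45.7 CPM in MCC. Rgs1, Rgs10 and Rgs18, which switch off G proteins, rose too, Rgs10 from 4.58 and 4.53 to 69.8 and 65.3 CPM. Prkcb was at 0.922 and 8.22 CPM in MEF and at 30.9 and 22.5 CPM in MCC, and Rasgrp3 at 18.1 and 1.93 CPM in MEF and at 41.9 and 22.2 CPM in MCC. Neither passed with either library.

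Chromatin regulators moved in both directions, with relatives on opposite sides. Their counts with each MCC library were close to the shares of all genes given above. They set the list as a whole little apart from other genes. Of 42 tested, 9 and 8 were called higher and 10 and 13 lower. Smarca1, a nucleosome-sliding ATPase, was at 19.03 and 13.9 CPM in MEF and at 0.364 and 0.161 CPM in MCC (log2 fold change -5.38 ± 0.58 and -6.65 ± 0.65, edgeR adjusted p = 0.00406 and 0.00217), and Smarcd3, a mesodermal subunit of the BAF complex, at 17.6 and 14.8 CPM in MEF and at 1.98 and 1.12 CPM in MCC. Of the DNA demethylases, Tet1 fell from 5.85 and 8.81 to 0.676 and 0.348 CPM and Tet3 rose from 68.1 and 87.9 to 154 and 164 CPM (log2 fold change 1.09 ± 0.18 and 1.08 ± 0.18, edgeR adjusted p = 0.012 and 0.0099). The DNA methyltransferase Dnmt3b rose from 1.65 and 2.91 to 18.5 and 20.7 CPM (log2 fold change 3.12 ± 0.35 and 3.18 ± 0.35, edgeR adjusted p = 0.00435 and 0.00301). Of the Polycomb proteins, Cbx7 rose from 4.12 and 6.54 to 12.04 and 18.9 CPM, while Cbx6, Phc1 and Phc2 fell, Phc1 from 35.8 and 48.4 to 9.28 and 8.59 CPM (log2 fold change -2.08 ± 0.26 and -2.29 ± 0.26, edgeR adjusted p = 0.00545 and 0.00323). Hdac7 fell from 109 and 102 to 25.8 and 16.1 CPM and Hdac9 rose from 7.62 and 5.69 to 12.2 and 18.6 CPM. The higher calls with library 1 were 15 without MEF library 1, 21 without MEF library 2 and 5 unscaled or with median-ratio size factors, and with library 2 they were 20 without MEF library 2.

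By size of change alone, outside the macrophage, leukocyte, collagen and Hox genes, the largest rises were from genes with almost no counts in MEF. Fcrls, a receptor-like protein best known from microglia, was at 0 and 0.0258 CPM in MEF and at 607 and 290.03 CPM in MCC. Nxpe5 was at 0 counts in MEF and 102 and 44.6 CPM in MCC, at least 2576-fold and 1125-fold higher. Tal1, a factor of blood stem cells and red cell precursors, was at 51.8 and 42.8 CPM, at least 1306-fold and 1081-fold higher. Tnfrsf13b (TACI), a receptor best known from B cells, was at 39.3 and 51.1 CPM, at least 991-fold and 1289-fold higher. Clec4a3, a lectin of myeloid cells, was at 42.002 and 38.1 CPM and Cd300ld, a receptor of the CD300 family, at 47.3 and 31.99 CPM, both from 0 in MEF. Gpr65, which senses acid, was at 41.6 and 45.4 CPM, with 24.7% of its exonic bases shared with another gene. Bin2 and Myo1f, a membrane-bending protein and a motor of leukocytes, rose too, Bin2 from 0 and 0.0258 to 153 and 163 CPM and Myo1f from 0.0542 and 0 to 253 and 295 CPM. MCC libraries 1 and 2 differed more for Fcrls and Nxpe5, both higher in library 1, than for Bin2.

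The largest falls, outside the same lists, included genes known from neural cells and hormone signalling. Wscd1 was at 14.7 and 45.8 CPM in MEF and at 0 and 0 CPM in MCC, and Calca, which encodes calcitonin and its related peptide, at 4.74 and 51.7 CPM in MEF and at 0 and 0 CPM in MCC. Both had 0 counts in either MCC library. Prom1 (CD133), of membrane protrusions, was at 13.1 and 33.6 CPM in MEF and at 0.0260 and 0 CPM in MCC, and Adgrb1 (BAI1), an adhesion receptor that can bind dying cells, at 10.4 and 29.96 CPM in MEF and at 0.0260 and 0 CPM in MCC. Mlc1, known from astrocytes, was at 29.4 and 70.7 CPM in MEF and at 0.104 and 0 CPM in MCC. Kcne4, which brakes potassium channels, was at 21.7 and 21.05 CPM in MEF and at 0.0260 and 0 CPM in MCC, 822-fold lower (counting interval 147 to 32496) with library 1 and at least 266-fold lower with library 2, with nearly equal levels in the MEF libraries. All of these were at or near 0 in both MCC libraries, and all but Kcne4 were higher in MEF library 2 than in MEF library 1.

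Promoter motifs were counted among the genes that rose and fell. The PU.1 box GAGGAAGT, searched on both strands of the 250 bases before the start, was found for 3.03% of all tested genes with a promoter, for 5.13% of those that rose with each MCC library and for 1.79% of those that fell. The TEAD site GGAATG was found for 13.1%, 11.3% and 16.5%, and the CCAAT box CCAAT for 39.9%, 36.4% and 39%. The PU.1 box of Cd300ld (minus strand, chr11:114989992-114990059) starts 143 bases before the gene, and the TEAD site of Gpm6a (plus strand, chr8:54779279-54779344) starts 125 bases before. Both stretches are from RefSeq on GRCm38.p6. Of the 14 largest rises, Cd300ld was the only gene found to hold the PU.1 box. Of the 14 largest falls, Gpm6a was the only gene found to hold the TEAD site. Genes without a RefSeq promoter could not be searched. The capitals mark the motif. A match is not evidence of a bound site, and no test was made of these shares.
Cd300ld: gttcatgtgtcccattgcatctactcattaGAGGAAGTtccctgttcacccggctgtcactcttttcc
Gpm6a: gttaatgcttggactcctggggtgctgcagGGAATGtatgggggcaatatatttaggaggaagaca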

How the data were processed

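Libraries made with an mRNA-seq kit, per the labels' protocols, from MEF, MCC and iMac were compared, 2 of each, grouped by the labels. The authors deposited 1 table of raw counts per gene. STAR, featureCounts and mm10 are named in the submitters' processing notes, with no versions. The sources used here give neither the annotation nor the strandedness of counting, so genes with overlapping exons are uncertain. All 30445 genes of the table had symbols, and 18613 passed edgeR's filterByExpr.

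Counts were fitted with edgeR 4.0.16 in R 4.3.3 (TMM scaling, glmQLFit, glmQLFTest, two-sided, 3 residual degrees of freedom over 6 libraries, Benjamini-Hochberg adjusted p up to 0.05). Each MCC library was then fitted without the other. List counts come from these single-library fits, although the planned list counts were over 6 libraries. The script was tested on simulated data. DESeq2 1.42.0, limma 3.58.1, other scalings and filters, a replicate block and leaving out each library were tried. Differences between the MCC libraries are values on the log2(CPM + 0.5) scale with no test. Intervals are exact binomial.

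The members and gene lists were chosen with earlier results of these data known. Genes named are the 14 largest rises and falls at 20 CPM or more that were called in every fit with no overlap, the 12 largest differences between the MCC libraries each way, and list members with large changes or high levels, or needed by role. These sets are given in part. Promoters are from RefSeq on GRCm38.p6.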

Additional observations from a re-analysis of the deposited data

How the results depend on the processing

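In the fit over all 6 libraries, 4358 genes were called higher and 5506 lower. The count of lower genes was 3652 with a filter of 5 CPM in 2 libraries, where fewer genes were tested. Leaving out 1 library at a time gave between 3134 and 4239 higher genes and between 3592 and 5168 lower ones, the fewest lower without MEF library 2. With MCC library 1, leaving out either MEF library gave 4715 to 4938 higher and 4725 to 5322 lower. With MCC library 2 it gave 4730 to 4935 and 5695 to 6188. The other scalings, filters and tests stayed within 1.5 times these counts, and shifted the median log2 fold change of all genes by -0.071 to 0.056.

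The differences between replicates 1 and 2 had correlations across genes of 0.189 (MEF and MCC), 0.0105 (MEF and iMac) and 0.0286 (MCC and iMac). Whether libraries with the same number share an origin is not given by the sources used here. These correlations cannot settle it. With the replicate block, 3962 genes were higher and 5060 lower over 6 libraries, 3342 and 4251 with MCC library 1, and 3238 and 4900 with MCC library 2.

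Of the 305 tested genes named here, 276 were called over 6 libraries. Of these, 215 kept the call under all 14 alternatives, 61 lost it under at least 1 and 0 reversed. Most losses came with fewer libraries (46 without MEF library 2, 43 without MEF library 1). With library 1 alone 285 were called and with library 2 alone 286, and those that lost the call without a MEF library are named beside their values.

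Sign changes were limited to 8 genes that were not called over 6 libraries. Acan was at a log2 fold change of -1.94 with limma-voom and at -0.20 with the replicate block. Cldn11 was at -0.15 and En2 at -1.88 with limma-voom. Ets2 was at 0.021 without scaling and at 0.062 with the MEF and MCC libraries alone. Leaving out 1 library at a time gave -8.70 to 2.88 for Acan, -2.95 to 2.61 for Cldn11, -8.50 to 2.79 for En2, -0.75 to 0.54 for Ets2, -1.05 to 0.57 for Cp, -0.20 to 0.035 for Cdk4, -0.33 to 0.041 for Rrn3 and -0.45 to 0.12 for Tln1. Acan, Cldn11, En2, Ets2 and Cp were named for their opposite calls with the MCC libraries, and their sign followed the MCC library left out. The cause of the other changes was not tested.

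List counts over 6 libraries were 15 higher chaperones, 23 higher splicing factors, 26 higher replication genes and 17 lower chromatin regulators, against the smaller counts with single MCC libraries given above. Other lists had fewer calls over 6 libraries than with MCC library 2. Among these were 20 lower BMP genes, 24 lower stress-fibre and focal adhesion genes and 16 lower cadherin, nectin and junction genes. A gene that missed the threshold is not shown to be unchanged.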

Other observations

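Ion channel genes moved in both directions. The share called higher with MCC library 1 was close to that of all genes given above, and the other shares were above those of all genes. Of 35 channel genes tested, 8 and 11 were called higher with MCC libraries 1 and 2, and 12 and 14 lower. Kcnk6 and Kcnk13, potassium leak channels, rose, Kcnk13 from 1.25 and 4.77 to 30.6 and 27.1 CPM (log2 fold change 3.45 ± 0.70 and 3.17 ± 0.70, edgeR adjusted p = 0.0196 and 0.0208) and Kcnk6 from 1.73 and 1.75 to 43.5 and 46.7 CPM (log2 fold change 4.74 ± 0.16 and 4.74 ± 0.16, edgeR adjusted p = 0.000258 and 0.000207). Cacna1d, a voltage-gated calcium channel best known from the heart and hair cells, rose from 1.003 and 0.696 to 44.5 and 50.6 CPM (log2 fold change 5.82 ± 0.24 and 5.90 ± 0.24, edgeR adjusted p = 0.000363 and 0.000272), while Cacna1c, its relative in smooth muscle, fell from 95.7 and 42.5 to 7.85 and 0.401 CPM (log2 fold change -3.03 ± 0.59 and -7.41 ± 0.80, edgeR adjusted p = 0.017 and 0.00288). Trpm2, a calcium channel opened by oxidative stress, rose from 0.136 and 0.103 to 6.63 and 5.80 CPM, and Trpc1 was at 9.05 and 7.81 CPM in MEF and at 0.442 and 0.0268 CPM in MCC. Piezo1, the stretch-activated channel, fell from 539 and 422 to 227 and 235 CPM, with 24.6% of its exonic bases shared with other genes.

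Sphingolipid and ganglioside genes rose about as often as they fell. Of 31 tested, 10 and 9 were called higher and 9 and 10 lower. B4galt6 and B4galnt1, which extend ganglioside sugars, rose, B4galnt1 from 28.5 and 17.1 to 128 and 147 CPM (log2 fold change 2.59 ± 0.31 and 2.69 ± 0.31, edgeR adjusted p = 0.00486 and 0.00329), while St8sia1, which makes the GD3 branch, was at 33.2 and 75.2 CPM in MEF and at 1.72 and 0.0268 CPM in MCC. The kinases that make sphingosine 1-phosphate went opposite ways, Sphk1 from 39.03 and 24.99 to 1.35 and 0.321 CPM (log2 fold change -4.46 ± 0.57 and -6.62 ± 0.67, edgeR adjusted p = 0.00593 and 0.00239) and Sphk2 from 39.9 and 35.2 to 79.7 and 92.98 CPM (log2 fold change 1.19 ± 0.15 and 1.31 ± 0.15, edgeR adjusted p = 0.00554 and 0.00314). So did its receptors, with S1pr1 rising from 30.7 and 28.3 to 101 and 92.4 CPM (log2 fold change 1.88 ± 0.13 and 1.65 ± 0.13, edgeR adjusted p = 0.00135 and 0.00131) and S1pr3 falling from 176 and 129 to 4.81 and 0.428 CPM (log2 fold change -4.88 ± 0.51 and -8.46 ± 0.64, edgeR adjusted p = 0.00373 and 0.00119). Without MEF library 1 the higher calls were 17 and 16. Of 27 detoxifying enzymes 8 were called higher with each library, and 10 and 14 lower. Aldh3b1 rose from 4.91 and 7.91 to 40.4 and 41.5 CPM (log2 fold change 2.76 ± 0.30 and 2.70 ± 0.30, edgeR adjusted p = 0.004 and 0.00306), and Ephx1, an epoxide hydrolase, fell from 370.4 and 293 to 61.9 and 38.3 CPM (log2 fold change -2.32 ± 0.20 and -3.12 ± 0.21, edgeR adjusted p = 0.00247 and 0.000906).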
